A study of Mus musculus with 4 samples.

Results

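The 2 wild-type libraries of a series of 4 were described here, with no comparison to the other 2. Chromatin accessibility was measured by fast-ATAC-seq, in which a transposase cuts open DNA and tags the ends for sequencing, so that the number of reads in a region follows how exposed its DNA is. Each library came from the Lin-Sca1+ckit+ (LSK) bone marrow cells of 1 wild-type mouse aged 10 weeks, sorted by flow cytometry. The 2 libraries not used are from Helios null mice of the same age. All 130941 peaks of the common peak set, named by 31518 gene names, were taken, with a count in each wild-type library. The sources used here do not say on which of the 4 libraries the peaks were called, nor by which criteria, and a region open in wild type may lack a peak.

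LSK cells carry no surface marker of a mature blood lineage and hold the blood stem cells and the earliest multipotent progenitors. Regulatory DNA in such cells includes gene promoters, which many tissues share, and distal elements such as enhancers, which tend to be used in fewer cell types. In progenitors, elements of several blood lineages can be open before the genes themselves are strongly expressed.

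Promoters at both ends of the range are shown first, because base composition and short motifs differed along it. Sequences are RefSeq promoter windows of the GRCm38.p6 build (the mm10 coordinates of the files), 300 bases each, from 250 before to 50 after the start, 5′ to 3′ on the strand of the gene. Capitals mark 4 short motifs on either strand. CCAAT is the core bound by the factor NF-Y. An ETS site, for the family of Spi1 and Fli1, is written CCGGAAG. The SP and KLF zinc finger families bind GC boxes with the letters GGGCGG. In a minority of promoters the start is positioned by a TATA box, written TATAAA. Lnpep (chr17:17624440-17624739, minus strand), Hjurp (chr1:88277530-88277829, minus) and Sp4 (chr12:118301391-118301690, minus) lay under 3 of the 5 highest peaks. Kit (chr5:75574737-75575036, plus) and Cd34 (chr1:194938571-194938870, plus) are markers of the sorted cells. Cd3e of T cells (chr9:45009562-45009861, minus) and Alb of liver (chr5:90460620-90460919, plus) lay under no peak.
Lnpep: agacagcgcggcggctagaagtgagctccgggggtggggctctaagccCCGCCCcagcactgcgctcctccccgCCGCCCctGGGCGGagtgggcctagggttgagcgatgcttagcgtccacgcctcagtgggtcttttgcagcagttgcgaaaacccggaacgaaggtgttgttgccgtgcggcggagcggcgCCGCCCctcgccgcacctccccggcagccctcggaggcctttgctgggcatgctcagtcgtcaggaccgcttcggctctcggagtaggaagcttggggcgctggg
Hjurp: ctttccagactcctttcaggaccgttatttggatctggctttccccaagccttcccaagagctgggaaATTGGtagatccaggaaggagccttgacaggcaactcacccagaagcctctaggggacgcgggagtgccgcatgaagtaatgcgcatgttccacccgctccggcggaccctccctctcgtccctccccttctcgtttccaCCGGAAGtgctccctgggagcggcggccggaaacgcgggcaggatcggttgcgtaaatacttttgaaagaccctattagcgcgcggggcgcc
Sp4: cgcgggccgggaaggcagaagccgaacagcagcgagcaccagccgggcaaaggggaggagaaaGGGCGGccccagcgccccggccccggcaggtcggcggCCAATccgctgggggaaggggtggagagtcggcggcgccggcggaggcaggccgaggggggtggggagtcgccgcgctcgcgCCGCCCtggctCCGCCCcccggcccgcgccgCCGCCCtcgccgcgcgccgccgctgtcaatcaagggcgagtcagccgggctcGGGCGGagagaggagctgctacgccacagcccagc
Kit: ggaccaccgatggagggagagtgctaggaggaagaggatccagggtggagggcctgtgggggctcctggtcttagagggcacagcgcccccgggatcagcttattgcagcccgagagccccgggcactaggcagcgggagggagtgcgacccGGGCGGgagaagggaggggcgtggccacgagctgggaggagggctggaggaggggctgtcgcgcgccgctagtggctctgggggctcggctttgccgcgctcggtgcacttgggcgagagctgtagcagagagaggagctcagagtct
Cd34: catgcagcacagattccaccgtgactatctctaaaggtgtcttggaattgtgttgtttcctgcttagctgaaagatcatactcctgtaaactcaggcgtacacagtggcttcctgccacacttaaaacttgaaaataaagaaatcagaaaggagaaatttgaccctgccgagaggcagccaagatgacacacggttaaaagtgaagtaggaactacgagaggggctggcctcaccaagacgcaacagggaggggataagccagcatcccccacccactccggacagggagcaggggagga
Cd3e: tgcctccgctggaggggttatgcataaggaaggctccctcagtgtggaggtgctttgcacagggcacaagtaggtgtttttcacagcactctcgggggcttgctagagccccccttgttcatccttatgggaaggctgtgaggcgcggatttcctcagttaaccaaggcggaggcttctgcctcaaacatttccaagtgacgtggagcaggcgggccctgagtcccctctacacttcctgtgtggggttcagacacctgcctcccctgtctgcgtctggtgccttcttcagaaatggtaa
Alb: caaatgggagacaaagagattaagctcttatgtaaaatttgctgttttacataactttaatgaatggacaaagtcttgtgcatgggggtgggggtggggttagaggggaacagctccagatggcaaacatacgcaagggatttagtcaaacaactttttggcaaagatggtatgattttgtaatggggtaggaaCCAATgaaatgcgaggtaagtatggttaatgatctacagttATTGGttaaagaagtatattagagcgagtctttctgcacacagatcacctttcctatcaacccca
The Sp4 window held 42 CpG dinucleotides, 5 SP/KLF sites and 1 CCAAT box, and the Lnpep window 30 CpG and 4 SP/KLF sites. The Hjurp window held 22 CpG, 1 CCAAT box and 1 ETS site. The Kit window held 20 CpG and 1 SP/KLF site, and the Cd34 window 7 CpG and none of the marked motifs. The Cd3e and Alb windows held 8 and 3 CpG and no SP/KLF or ETS site, while the Alb window, under no peak, held 2 CCAAT boxes.

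Counts over the peaks totalled 29745812 in mouse 1 and 16033211 in mouse 2. Levels are given as CPM, counts scaled to a total of 1000000 in each library, and an SD is over the 2 mice. The median peak held 93 counts in mouse 1 and 49 in mouse 2, which is 3.13 and 3.06 CPM. In all, 106384 peaks (81.2%) reached 1 CPM in both mice, 46292 (35.4%) averaged at least 5 CPM, 2515 at least 50 and 305 at least 100. Across peaks, CPM values of the mice had a Pearson r of 0.935 on the log2 scale and a Spearman rho of 0.923, a description over regions that share the same 2 libraries. Peaks were 73 to 2933 bp wide with a median of 404 bp, and a wider peak collects more counts, so CPM of different regions also reflects width, and CPM per kb is added for some of them. No test is given, since there is 1 group of 2 mice. The labels name no sex, and the mice appear to differ in it: 4 male-specific Y genes held 1715 counts in mouse 1 and 5 in mouse 2, and the Xist start 0 and 109. Every mean and SD here is over these 2 mice.

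Promoters took the largest share of the accessible signal of any annotation class. Peaks of the authors' promoter-TSS class were 15.2% of peaks and held 34.6% of counts in mouse 1 and 35.7% in mouse 2 (35.2 ± 0.817%, SD). Introns came next, with 32.1% of peaks and 25.1 ± 0.283% of counts. The Distant-promoter class had 24.0% of peaks and 15.99 ± 0.837% of counts, and the Intergenic class 19.9% and 13.2 ± 0.307%. Exons had 5.02% of peaks and 7.61 ± 0.171% of counts, and transcription termination sites (TTS) 3.79% and 2.94 ± 0.175%. The order of the classes by count share was the same in both mice.

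The median promoter-TSS peak held 8.88 CPM in mouse 1 and 8.17 in mouse 2 (8.52 ± 0.498, SD), 2.76 times the median of all peaks. Exon peaks had a median of 4.81 ± 0.278 CPM. The remaining classes had medians from 2.58 ± 0.137 CPM (Intergenic) to 2.84 ± 0.219 (TTS), a range that their SDs over the mice nearly cover. Promoter-TSS peaks were also wider (median 694 bp, against 371 to 384 bp in the 4 lowest classes). Per kb of width, the promoter-TSS median was 14.8 ± 0.863 CPM per kb, against 10.1 ± 0.425 for exons and 7.15 ± 0.561 for Intergenic. Within the promoter-TSS class, 5.21% of peaks averaged under 1 CPM, against 13.4% of Intergenic peaks.

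**Figure D1:**
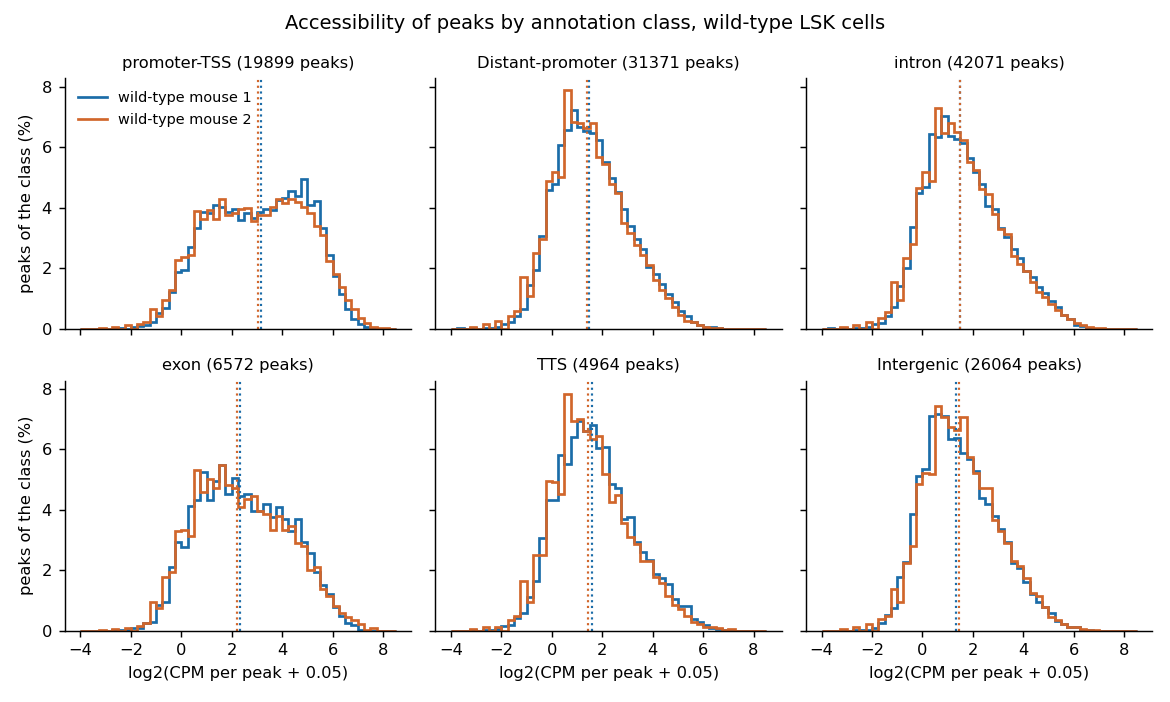
Distribution of accessibility per peak in each annotation class; the x axis is log2(CPM + 0.05), the y axis the percent of the peaks of the class, the solid lines the 2 wild-type mice and the dotted lines their medians. Promoter-TSS peaks spread broadly around a median of 8.52 CPM, while the Distant-promoter, intron, TTS and Intergenic classes have medians between 2.58 and 2.84 CPM.

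Promoters also lay under other class labels. When RefSeq promoter windows were overlaid, 13257 peaks (10.1%) lay over one, and they held 33.1% of counts in mouse 1 and 34.6% in mouse 2. Of these, 70.1% were labelled promoter-TSS, 11.9% intron and 11.7% exon. The Flt3 start site is an example: the peak over it is labelled exon. Moving such peaks raised the promoter share of counts from 35.2% to 44.0% and lowered the intron share to 21.3% and the exon share to 3.74% (an alternative chosen after seeing the data). The 44.0% counts peaks that meet either definition. The promoter-TSS class holds 19899 peaks, more than the 13257 over a RefSeq window, so many of its peaks lay over no such window. Of the peaks over a RefSeq promoter, 1733 (13.1%) lay over starts on both strands, and their median was 31.2 CPM, against 17.2 CPM for peaks over starts of 1 strand, with no adjustment for width.

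The signal was spread over many regions and not held by a few. The 1309 highest peaks (the top 1%) held 10.5% of counts in mouse 1 and 12.7% in mouse 2, the top 10% held 48.8% and 50.9%, and the top 50% held 89.3% and 89.6%. Of the top 1%, 71.1% were promoter-TSS peaks, 11.2% exon, 9.47% intron, 3.59% Intergenic, 2.83% Distant-promoter and 1.83% TTS. Peaks over starts of both strands made up 26.6% of the top 1% peaks that lay over a RefSeq promoter. Ranked in each mouse alone, the top 1% lists shared 975 of 1309 peaks (74.5% of each list). Ranked by CPM per kb, 776 (59.3%) of the top 1% were the same, and 60.6% were promoter-TSS peaks.

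None of the 20 gene names with the highest peaks was a member of the 14 gene lists described further on. The first was the promoter of Lnpep, which encodes a membrane aminopeptidase, with 203 CPM in mouse 1 and 269 in mouse 2 (236 ± 46.6, SD; 181 CPM per kb). The non-coding transcript 4932412D23Rik came next with 202 and 266 CPM. Hjurp, which encodes the chaperone of the centromeric histone CENP-A, had 176 and 288 CPM, and Ifrd1, a transcriptional co-regulator, 191 and 270. Sp4, an SP-family transcription factor that binds GC-rich promoters, had 172 and 255 CPM. Mouse 2 was the higher of the 2 at all of these peaks.

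The rest of the 20 highest peaks, 1 for each gene name, averaged 172 to 213 CPM. They included the promoters of Mon1b (vesicle transport), Zfp788 (a zinc finger protein), Arl4a (a small GTPase), Pdcd10, Gsk3b (a kinase of the Wnt and insulin pathways), Prcp, Eny2 (a subunit of the SAGA complex) and Arrdc3. Several covered a pair of starts: the Kbtbd3 peak also covered Aasdhppt, the Fam76b peak Cep57, the Mblac2 peak Polr3g, and the Prcp peak Ddias. The exon peak named B430305J03Rik covered the start of Rap2b, and the Sap130 peak, in the first intron of that gene, covered none of the RefSeq starts used here.

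Outside the promoter-TSS class, the highest Intergenic peak was named for Sod1 (chromosome 16, 90143105 to 90144916), with 122 and 154 CPM in the 2 mice. The peak named CT010452.1 had 111 and 114 CPM, and the Mir7008 peak 105.998 and 106.467. In the Distant-promoter class the highest peaks were named for Zfp869 (113 CPM, which covers a RefSeq start), for Mir17hg, the host gene of the miR-17 cluster (83.2 and 142 CPM), for Znrf1, for Olfr647-ps1 (99.5 CPM) and for Dnmt3a, the de novo DNA methyltransferase (107 and 89.6 CPM, in an intron). In introns, Sap130 (186 CPM), Gm3150 (141), Scai (129) and Mei4 (128) led, and Scai and Mei4 covered RefSeq starts. In exons, B430305J03Rik (174 CPM), Dsel (155), Crlf2 (152) and Bmt2 (151) led. Of the TTS peaks, Vsig10l (123 CPM), Epha7 (121) and Prr36 (114) were highest.

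By gene name, accessibility summed over all assigned peaks gave another order than single peaks. The median name had 3 peaks and 18.4 CPM, and 8854 names (28.1%) had 1 peak. Pde4d, which encodes a cAMP phosphodiesterase and spans 1504 kb, had the most peaks (117) and the highest sum, 670 CPM in mouse 1 and 599 in mouse 2. Its promoter peaks gave 18.1% of that sum, and its highest peak was 35.5 CPM. The related phosphodiesterase gene Pde4b had 64 peaks and 494 ± 2.85 CPM (SD). Zfp36l2, which encodes an mRNA-decay protein that mice need for definitive blood formation, reached 526 ± 105.8 CPM with 25 peaks although the gene spans 4.02 kb.

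Others of the 20 highest sums were Gse1 (475 CPM), Tns3 (474), Fam105a (436), Elmo1 (411, an activator of Rac signalling), Trps1 (396, a GATA-type repressor), Nav2 (389), Asap1 (385), Mef2c (373, a factor of lymphoid and myeloid progenitors), Lnpep (371), Tiam1 (370), Hivep3 (359), Foxp1 (358), Tns1 (357), Arhgap26 (355), Cdh26 (354), Dock4 (353) and Celf2 (352). Lnpep owed 63.6% of its sum to 1 promoter peak, while Foxp1 with 68 peaks owed 5.51% to its highest. Besides these, Rora (60 peaks), Sgms1 (59), Bmper (57), Ablim1 (51) and Mbnl1 (50) were among the 15 names with the most peaks. Across names, the number of peaks and the sum had a Spearman rho of 0.667. A sum follows gene length and assignment: when only peaks within 10 kb of the gene were counted, Cdh26 kept 0.711% of its sum, Fam105a 27.8%, Zfp36l2 43.6% and Trps1 57.4%, and 15 of the 20 stayed among the 20 highest.

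Among 100 kb windows laid along the genome, a layout chosen after values were seen, accessibility outside promoter-TSS peaks and RefSeq starts was highest at Zfp36l2. Peaks that are neither promoter-TSS nor over a RefSeq start held 56.8% of counts in mouse 1 and 55.3% in mouse 2, and the median of 17481 windows with such peaks was 5 peaks and 20.4 CPM. The first window, on chromosome 17 from 84100001 to 84200000, overlaps Zfp36l2 and Thada and had 26 peaks with 507 and 367 CPM in the 2 mice. It ranked first in each mouse. Its Intergenic peaks named for Zfp36l2 had 82.5 ± 17.7, 62.0 ± 9.95 and 60.7 ± 14.98 CPM (SD), beside 107 ± 11.3 at the promoter. The next window by mean, on chromosome 9 from 32500001 to 32600000, had 31 peaks and 323 ± 23.2 CPM. It holds Fli1, an ETS factor of blood stem cells and megakaryocytes, and ranked 3 in mouse 1 and 5 in mouse 2. The window at Tnfrsf1b and Tnfrsf8, with 320 ± 20.3 CPM, ranked 5 and 3, so the order after the first window differed between the mice. Windows at Tnfrsf1b and Tnfrsf8 on chromosome 4 (320 CPM), at Spred2 on chromosome 11 (289), at Tiam1 on chromosome 16 (285) and at Slamf8 and Tagln2 on chromosome 1 (275) followed, together with one at Cxxc5 on chromosome 18 (318), and the Tiam1 window held the peaks named Sod1.

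Marker genes of the sorted cells were checked through the highest promoter peak assigned to each. Of 14 LSK surface genes, 13 had a peak and 12 a promoter-TSS peak. The median over all 14 was 11.9 CPM (13.4 in mouse 1 and 10.2 in mouse 2), beside 1.27 CPM over 21900 RefSeq protein-coding genes and 8.64 CPM over all promoter-TSS peaks (the median of the means of both mice). The value over all genes is low because 51.9% of them had a promoter-TSS peak of their name. With peaks over the RefSeq start added whatever their label, the median was 12.5 CPM for the LSK list and 9.22 CPM for all genes, and 71.4% of the list against 50.9% of all genes reached 8.64 CPM. Lists were written with earlier results of these data known, so their counts describe and test nothing.

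Kit, the receptor for stem cell factor used in the sort, had a promoter peak (chromosome 5, 75574616 to 75575456) of 31.7 CPM in mouse 1 and 25.5 in mouse 2, and 16 peaks in all. Its first intron held a peak of 22.1 and 16.9 CPM that begins at 75575539, right beside the promoter peak, so it may belong to the same start region. Per kb this intron peak was above the promoter peak (41.9 against 34.1 CPM per kb). Cd34, a sialomucin of stem and progenitor cells, had a promoter peak of 38.4 and 41.5 CPM, a Distant-promoter peak of 29.0 and 28.9 and an intron peak of 30.5 and 26.4. Esam, an adhesion molecule of blood stem cells, had 38.0 and 49.5 CPM at its promoter. Flt3, the cytokine receptor of multipotent progenitors, had 58.3 and 45.0 CPM in the exon peak over its start and 9.11 and 6.30 in its promoter-TSS peak.

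Other LSK surface genes were less open. Itga2b (CD41) had 20.7 CPM, Eng 12.3, Tek 11.96, Cd27 11.9, Cd48 11.8 and Thy1 8.37 CPM on average at the promoter-TSS peak. Slamf1, the gene of CD150, had 2.52 and 2.12 CPM at its promoter, and 14.3 and 13.3 CPM in a Distant-promoter peak. Procr, the gene of EPCR, had no promoter-TSS peak, and its start lay under an intron peak of 9.24 and 7.23 CPM. Ly6a, which encodes the Sca-1 antigen used in the sort, had no peak in the table used here. The nearest peak lay 1879 bp from it (chromosome 15, 74992843 to 74992998) with 1.41 and 1.497 CPM, and the next, 5058 bp away and named Gm37042, had 37.6 and 31.7 CPM. Kit, Cd34 and Flt3 were thus open in both mice, while the Sca-1 label could not be checked at its own gene.

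Transcription factors of stem and progenitor cells were open as a list. All 25 had a promoter-TSS peak, with a median of 28.0 CPM, and 23 of 25 (92.0%) reached the 8.64 CPM median of all promoter-TSS peaks, against 36.4% of all protein-coding genes. With RefSeq starts added the share stayed 92.0%, beside 50.9% of all genes. Per kb of peak, the median of the list was 31.4 CPM per kb.

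Among the most open were Hhex (104 and 93.0 CPM), a homeobox factor of early lymphoid and stem cells, and Etv6 (89.2 and 96.1), an ETS repressor needed by marrow stem cells. Cebpa, the factor that starts the granulocyte programme, had 73.6 and 61.1 CPM, Lyl1 64.98 and 50.5, and Myc 57.4 and 55.4. Meis1, a HOX cofactor of stem cells, had 41.8 and 45.4 CPM, and Ikzf2, the gene of Helios, 33.1 and 46.5. Gfi1 (36.9 CPM), Ikzf1 (36.4), Runx1 (33.5), Tal1 (30.5), Myb (28.0), Mycn (24.1), Lmo2 (21.3), Hlf (17.7) and Bmi1 (14.0) followed. Erg (12.7 CPM), Hoxa10 (12.6), Spi1 (12.2), Gata2 (11.7), Mecom (11.6), Gfi1b (9.85), Hoxa9 (8.43) and Fli1 (3.86) were lowest.

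For several of these factors the promoter-TSS peak was not the highest by CPM. Mecom had 57.8 and 56.6 CPM in an intron peak (chromosome 3, 30508123 to 30509082) against 11.6 CPM at the promoter-TSS peak. Spi1, the gene of PU.1, had 53.8 and 39.0 CPM in 1 intron peak and 51.6 and 39.7 in another. Runx1 had 66.7 and 42.8 CPM in an intron peak (intron 2 of 7), and 43 peaks with 316 ± 98.2 CPM in sum (SD). Erg had 49.1 and 39.4 CPM in an intron, Fli1 31.1 and 27.4 in an intron, Lmo2 43.7 and 28.1 in a Distant-promoter peak, and Gata2 25.9 and 20.2 in a Distant-promoter peak. The highest peaks of Ikzf1 (intron, 36.3 and 48.1 CPM), Tal1 (TTS, 32.4 and 36.5) and Hlf (Intergenic) also lay outside the promoter-TSS class. Mouse 1 was the higher at these peaks for the first 7 of these factors and mouse 2 for Ikzf1, Tal1 and Hlf. Per kb of width, the peak outside that class was still above the promoter-TSS peak at Mecom (59.6 against 17.4 CPM per kb), Runx1 (38.9 against 18.7) and Gata2 (27.5 against 15.8). At Spi1 the promoter-TSS peak (24.1 CPM per kb) and the narrower of the 2 intron peaks (46.4) are annotated to a transcript with 1 intron. The wider intron peak (25.6) is annotated to intron 1 of 4 of another Spi1 transcript. Its distance from the start of that transcript was not measured, so it may not be distal. The promoter value given for Spi1 refers to the transcript with 1 intron.

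Cytokine receptors were open on the whole. Of 20, 16 had a promoter-TSS peak, and the median was 16.1 CPM, or 22.1 CPM with RefSeq starts added. Il3ra, a subunit of the interleukin-3 receptor, led with 53.6 and 80.5 CPM, then Ifngr1 (57.2 and 50.8), Cxcr4 (50.2 and 40.8), the receptor that holds stem cells in the marrow, and Ifnar1 (35.7 and 36.9). The erythropoietin receptor gene Epor (1.17 CPM) and Csf1r (1.56 CPM), the receptor of macrophage colony-stimulating factor, were lowest at promoter-TSS peaks. Csf1r nevertheless had 56.6 and 43.8 CPM in an intron peak (intron 2 of 21).

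Lineage genes were open unevenly. By label alone, the lineage lists described next had medians above the 1.27 CPM of all protein-coding genes. With RefSeq starts added, the median of all genes was 9.22 CPM. The megakaryocyte list then had 9.28 CPM, and the erythroid (3.04), granulocyte and monocyte (3.23) and lymphoid-primed (6.61) lists lay below all genes. Among 16 megakaryocyte genes, 12 had a promoter-TSS peak, with a median of 8.04 CPM, and the highest were Zfpm1 (52.2 and 45.5 CPM), the GATA cofactor FOG1, the platelet chemokine Pf4 (25.8 and 32.5), Gp9 (24.4 and 19.8) and Itga2b. Selp and Vwf were lowest at the promoter, with 3.15 and 1.73 CPM, but Selp had a peak of 80.6 and 68.5 CPM inside the gene and Vwf an intron peak of 46.1 and 42.2. Among 15 erythroid genes, 11 had a promoter-TSS peak, with a median of 3.04 CPM. Bcl11a, the repressor of fetal globin (30.2 and 36.3 CPM), Tfrc (29.0 and 24.0), Hemgn (20.1) and Sptb (17.6) were highest and Alas2 (1.13) and Slc4a1 (0.593) lowest. Gata1, the erythroid master regulator, had 3.09 and 2.99 CPM, Klf1 had no promoter-TSS peak but an exon peak of 26.6 and 20.7 CPM, and Hba-a1 had no peak.

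Granulocyte and monocyte genes had a median of 3.23 CPM, with 9 of 12 showing a promoter-TSS peak. With RefSeq starts added, 16.7% of them reached 8.64 CPM, against 50.9% of all protein-coding genes. Cebpa (67.3 CPM), Csf3r (28.7 and 18.3 CPM), Mpo (11.4 and 4.99) and Irf8 (9.78 and 5.24) were highest, and Prtn3 and Csf1r lowest with 1.67 and 1.56 CPM. Prtn3, which encodes a neutrophil granule protease, had 36.2 and 28.6 CPM in a Distant-promoter peak. Lymphoid-primed genes had a median of 5.63 CPM, with 12 of 14 showing a promoter-TSS peak. Mef2c (91.3 and 112 CPM), Satb1 (54.9 and 58.6), Tcf3 (22.1 and 22.2) and Il12a (19.8 and 15.7) were highest, and Ikzf3 (1.68) and Ccr9 (0.836) lowest. Dntt, the template-free polymerase of early lymphocytes, had 3.26 and 1.31 CPM at its promoter, but a Distant-promoter peak of 32.9 and 24.2 CPM and an intron peak of 25.95 and 23.6.

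By label alone, genes of cells outside the sort gate had promoter-TSS peaks about as often as all protein-coding genes (51.9%, median 1.27 CPM). With peaks over RefSeq starts added, the median of all genes was 9.22 CPM, and 50.9% of them reached 8.64 CPM. In the B cell, T and NK cell, mature myeloid, and mast cell and basophil lists 23.1%, 21.4%, 14.3% and 22.2% did. By this measure these lists were less open than all genes, and their medians, given next, did not change. Stroma and endothelium genes, described further on, did not follow: 61.5% of them reached 8.64 CPM, with a median of 8.91 CPM. Of the 13 B cell genes 6 had a promoter-TSS peak, of the 14 T and NK cell genes 8, of the 14 mature myeloid genes 6, and of the 9 mast cell and basophil genes 5, and the medians over all members were 0, 1.56, 0 and 1.07 CPM. Cd79a, Vpreb1, Cd3g, Cd8a, Ncr1, Gzma, Camp, Fcer1a and Ms4a2 had no peak. The highest were Cd24a (56.3 CPM), Cr2 (27.9), Pax5 (14.96) and Cd79b (6.06) of the B cell genes, and Lat (40.2), Cd5 (15.7), Lck (15.2) and Tcf7 (6.29) of the T and NK cell genes. Cd22 and Fcer2a of B cells had 3.27 and 1.91 CPM, and Cd2 and Cd4 of T cells 1.77 and 1.34. Of the mature myeloid genes Mmp9 (10.4 CPM), Ltf (9.96), Adgre1 (8.44) and Siglech (7.56) were highest and Itgam (5.08) and Mrc1 (3.16) lowest. Of the mast cell and basophil genes Mitf (12.9), Cpa3 (9.55), Hdc (8.01) and Mcpt8 (3.57) were highest and Cma1 (1.07) lowest.

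Summed over all their peaks, the B cell genes held 385 CPM in mouse 1 and 341 in mouse 2, the T and NK cell genes 396 and 322, the mature myeloid genes 290 and 279, and the mast cell and basophil genes 198 and 183. Whether a few cells of these types contributed to the values was not tested, and fewer open cells and less opening in each cell cannot be told apart in bulk samples. By label alone, stroma and endothelium genes had a median of 7.90 CPM, with 8 of 13 showing a promoter-TSS peak. They were led by Pdgfra (28.3), Col1a2 (14.8), Cdh5 (14.6) and Col1a1 (10.3), with Nes (7.90) and Vcam1 (2.175) lowest. Ubiquitous genes had a median of 34.2 CPM, from Ywhaz (104), Gapdh (52.0), Polr2a (45.2) and Ppia (42.1) to Rpl32 (6.32). Genes of non-blood tissues had a median of 0 CPM, with 5 of 20 showing a promoter-TSS peak: Pax6 (13.4), Sox2 (5.12), Gfap (1.77), Afp (1.68) and Pou5f1 (1.30).

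**Figure D2:**
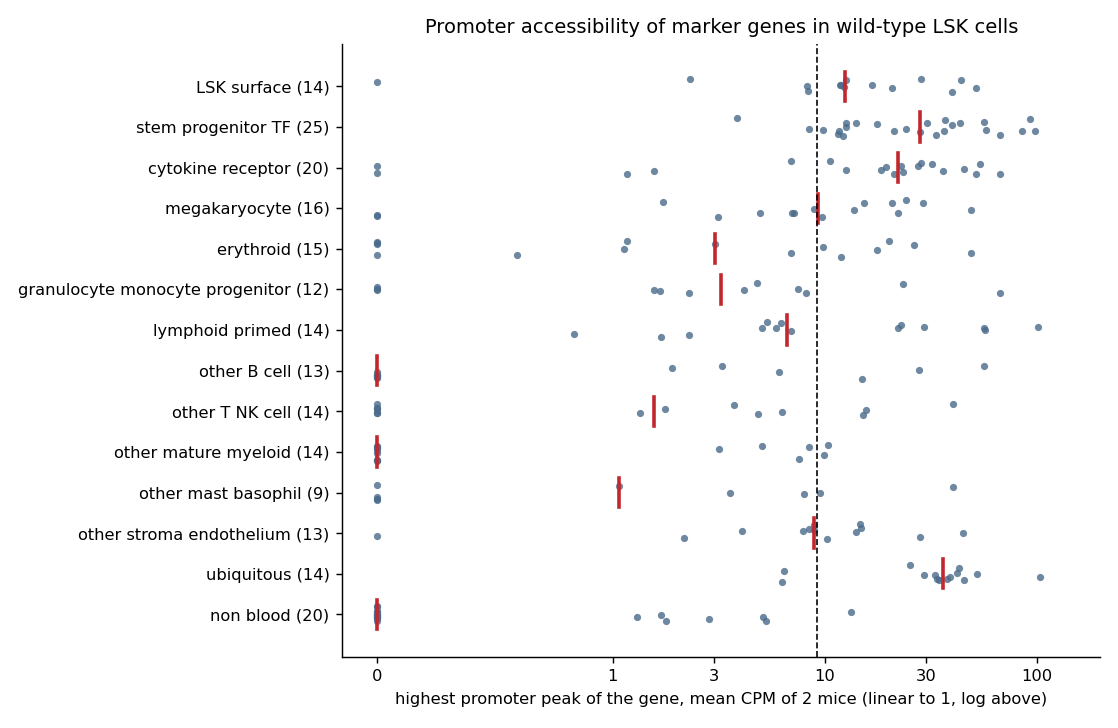
Promoter accessibility of 14 gene lists; each point is a gene, placed on the x axis by the mean CPM of its highest peak of the promoter-TSS class or over its RefSeq start (linear up to 1, logarithmic above), and the number of genes is in parentheses. Red bars are list medians and the dashed line is the 9.22 CPM median of all protein-coding genes; stem and progenitor factors (28.0 CPM) and ubiquitous genes (36.1 CPM) sit above it, and B cell, mature myeloid and non-blood genes have a median of 0.

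Base composition and short motifs followed promoter accessibility. Of 32851 RefSeq windows, of 27025 genes and partly overlapping where a gene has several starts, 16391 (49.9%) lay under a peak. GC content averaged 46.9% in windows with no peak, 55.3% in the lowest 10% of those with a peak and 63.7% in the highest 10%, and CpG dinucleotides rose from 4.43 to 11.7 and 24.8 for each window. The highest 10% began at 59.1 CPM. Windows share bases and libraries, so these are descriptions, and a match is not a bound site.

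Motifs were searched as exact letters on both strands, with Wilson 95% intervals that cover counting error only. The SP/KLF letters GGGCGG were in 10.3% of windows with no peak, 36.1% of the lowest 10%, 74.3% of the highest 10% and 35.7% of all windows. The NF-Y letters CCAATC were in 13.2% (12.7 to 13.7), 11.2% (9.73 to 12.8), 32.0% (29.7 to 34.2) and 16.1%. These letters are longer than the CCAAT marked in the printed sequences, and not every marked box holds them. For NF-Y the largest step lay at the top: of 10 groups in order of CPM, group 8 had 20.9% and group 9 had 24.5%. The ETS letters CCGGAAG were in 2.37% of windows with no peak and 4.39% of the lowest 10%, reached 19.8% in group 6 of 10 and stood at 17.0% in the highest. NRF1 (GCGCATGC) went from 0.765% with no peak to 4.63% in the highest 10%, and CREB/ATF (TGACGTCA) from 0.668% to 3.41%.

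Other motifs, among them those of blood factors, were less frequent in the most open promoters. The TATA box (TATAAA) was in 20.2% of windows with no peak and 4.39% of the highest 10%, against 13.6% of all windows. The GATA letters AGATAA went from 15.9% to 3.66%, the RUNX letters TGTGGT from 20.3% to 9.21%, AP-1 (TGANTCA) from 10.4% to 3.78% and the E-box CAGCTG from 17.0% to 13.1%. YY1 (AAGATGG) was in 6.21% with no peak, 4.76% of the lowest 10%, 8.11% in group 6 of 10 and 5.49% of the highest 10%. The CpG-free ETS letters GAGGAAG were in 12.8% with no peak, 18.0% of the lowest 10% and 13.7% of the highest 10%. Among windows of 55 to 65% GC, the NF-Y letters were in 14.5% with no peak, 12.5% of the lowest 20% and 33.9% of the highest 20%, and the ETS letters in 5.58%, 7.09% and 19.3%. CpG dinucleotides still rose there, from 8.32 for each window with no peak to 13.1 in the lowest 20%, and further in the highest 20%. The letters CCGGAAG hold a CpG, and whether they rose apart from CpG was not tested. The CpG-free ETS letters were flat in this range. They were in 15.2% of the highest 20%, inside the interval of windows with no peak (13.5 to 16.6%). In the same GC range, TATAAA was in 6.84% and 4.07% of windows with no peak and in the highest 20%, and AGATAA in 6.17% and 4.23%.

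**Figure D3:**
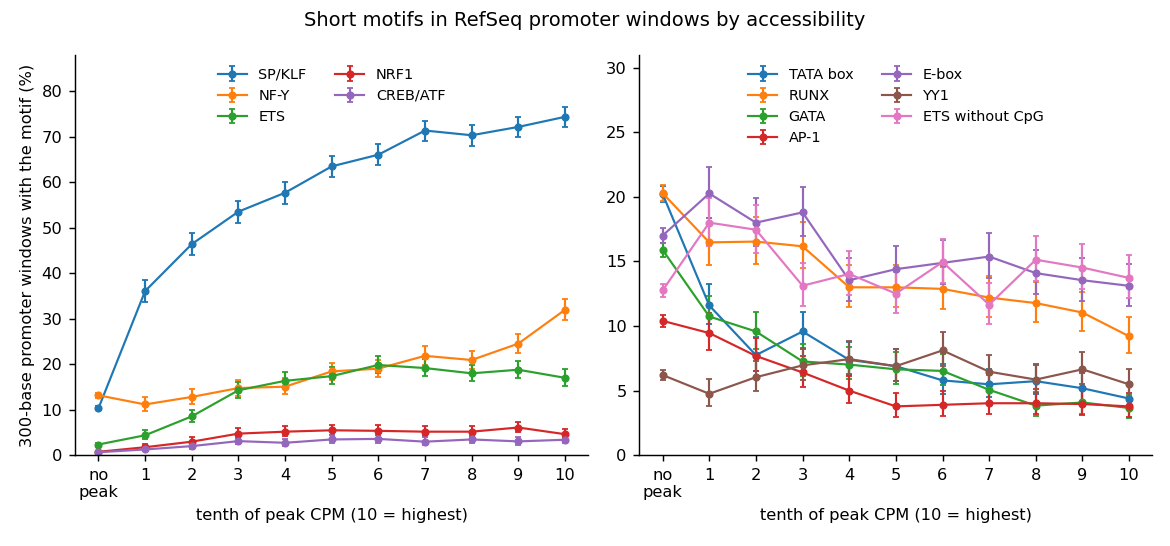
Share of 300-base RefSeq promoter windows that hold a short motif (y axis, percent) in windows with no peak and in 10 equal groups of peak CPM, from 1 (lowest) to 10 (highest); bars are Wilson 95% intervals. SP/KLF climbs from 10.3% to 74.3% and NF-Y from 13.2% to 32.0%, while the TATA box falls from 20.2% to 4.39%.

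The mice were compared peak by peak. Among the 46292 peaks of at least 5 CPM, the median absolute log2 ratio was 0.33, and the median SD that counting gives to this ratio was 0.14. In mouse 2, 680 peaks (1.47%) were over 2-fold higher and 683 (1.48%) over 2-fold lower than in mouse 1. With 1 library on each side these are differences between 2 libraries, and sex and other properties of the mice or libraries cannot be told apart. With the counts thinned to the shallower library, 708 peaks were higher and 769 lower. The share of peaks over 2-fold apart fell with level: on autosomes, 8.74% of peaks of 2 to 5 CPM were over 2-fold apart, 0.771% of those of 20 to 50 CPM and 0.162% of those above 50.

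**Figure D4:**
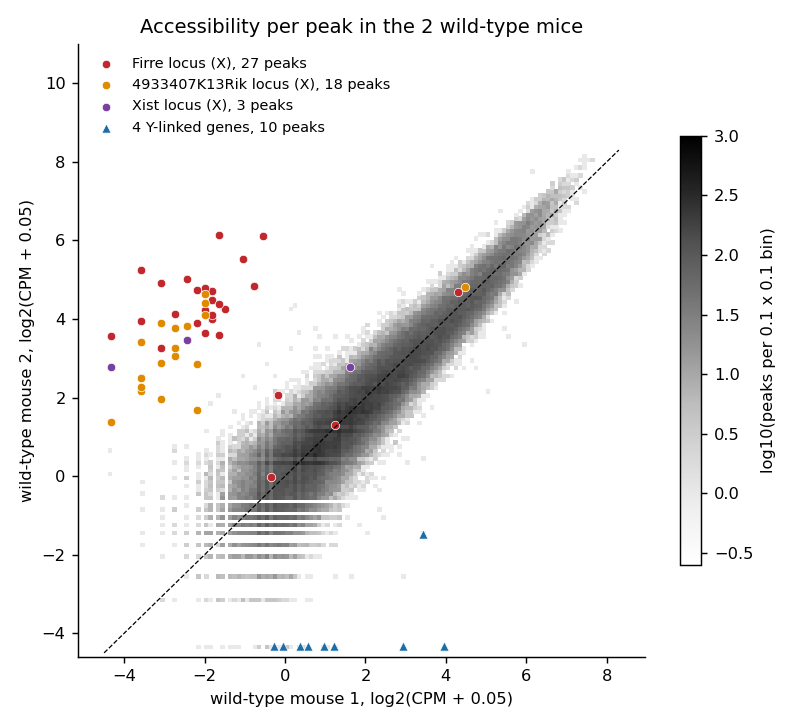
Accessibility of every peak in wild-type mouse 1 (x axis) and mouse 2 (y axis), both as log2(CPM + 0.05); grey squares show the number of peaks on a log10 scale and the dashed line equal values. Most peaks lie along the line, most peaks of the Firre, 4933407K13Rik and Xist loci stand above it, and the 10 peaks of 4 Y-linked genes lie below it.

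Autosomes held most peaks over 2-fold apart (609 higher and 680 lower in mouse 2), but the share of such peaks was larger on the X chromosome. Of its 1053 peaks of at least 5 CPM, 71 (6.74%) were over 2-fold higher in mouse 2 and 0 lower, against 1.35% and 1.503% on autosomes. Outside the Firre, 4933407K13Rik and Xist loci, 41 of 1021 were higher. The Y chromosome differed the other way: Uty, Ddx3y, Kdm5d and Eif2s3y, all on its male-specific part, together held 1715 counts in mouse 1 and 5 in mouse 2. The Uty and Ddx3y promoters had 458 counts each in mouse 1 and 0 in mouse 2, which, with 3 counts taken as the floor of a library, is at least 82.3-fold lower. The 6 peaks named Mid1-ps1 had counts in both mice, and the Gm28429 peak 38 and 0.

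Firre was among the loci with the largest differences. Over all its 27 peaks it had 28.7 CPM in mouse 1 and 635 in mouse 2, a ratio of 22.1. It encodes a nuclear non-coding RNA, and its gene body holds tandem repeats that bind the insulator protein CTCF on the inactive X. Its promoter peak (chromosome X, 50634888 to 50635959) was alike in both mice, with 589 counts (19.8 CPM) in mouse 1 and 409 counts (25.5 CPM) in mouse 2. The other 26 peaks in the gene held 266 counts (8.94 CPM) in mouse 1 and 9775 counts (610 CPM) in mouse 2, a ratio of 68.2. At single peaks mouse 1 had 0 to 69 counts and mouse 2 had 15 to 1119.

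The 4933407K13Rik locus had 24.0 CPM in mouse 1 and 201 in mouse 2 over all 18 peaks, a ratio of 8.36. It is the mouse Dxz4 locus, a second CTCF-bound repeat, known as the hinge between the large folded domains of the inactive X. The peak over its RefSeq start had 664 counts (22.3 CPM) in mouse 1 and 452 (28.2 CPM) in mouse 2. The other 17 peaks, some of them named Gm7153, held 51 counts in mouse 1, with 0 to 6 at each, and 2769 in mouse 2, with 41 to 397 at each, a ratio of 101 in CPM. All 17 were over 2-fold higher in mouse 2, as were 24 of the 26 at Firre.

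**Figure D5:**
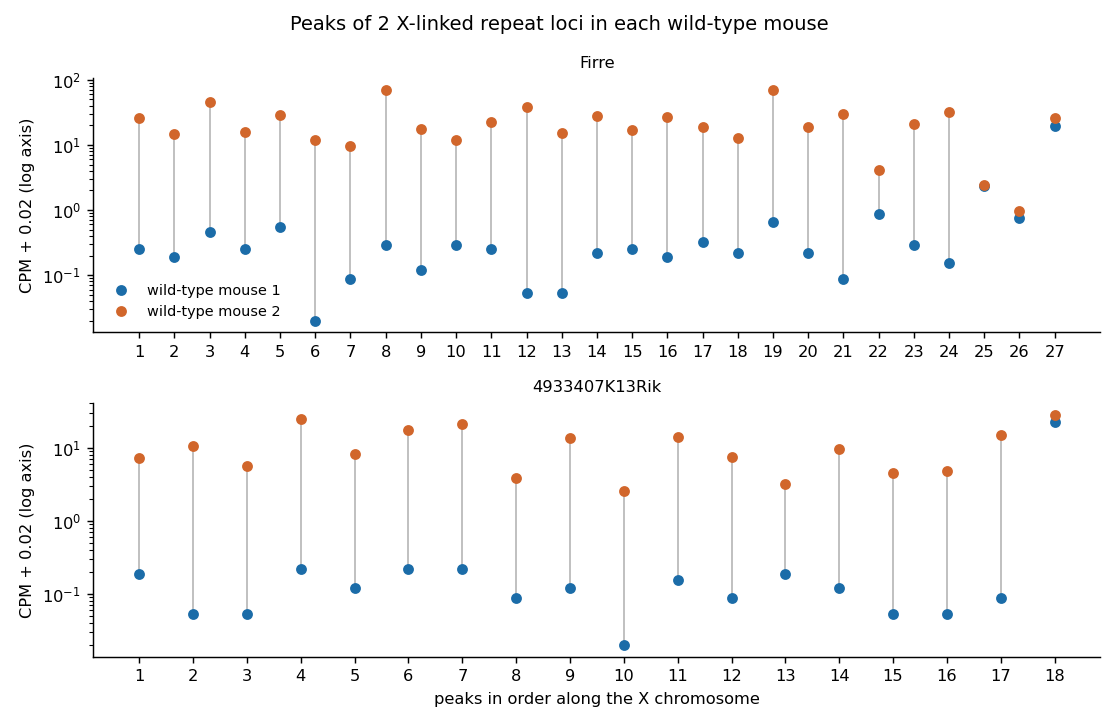
CPM of each peak (y axis, logarithmic, 0.02 added) in the order of the peaks along the X chromosome (x axis) for the Firre and 4933407K13Rik loci in both wild-type mice. In each locus the last peak, over the RefSeq start, is near equal in the mice (19.8 and 25.5 CPM, 22.3 and 28.2 CPM), and most other peaks are high in mouse 2 and near 0 in mouse 1.

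Xist, the RNA that coats and silences the inactive X, and Kdm6a, a histone demethylase gene that escapes this silencing, are shown because both were higher in mouse 2. The Xist window lies at chrX:103483184-103483483 on the minus strand and the Kdm6a window at chrX:18162325-18162624 on the plus strand, both in GRCm38.p6 from RefSeq, with capitals as above.
Xist: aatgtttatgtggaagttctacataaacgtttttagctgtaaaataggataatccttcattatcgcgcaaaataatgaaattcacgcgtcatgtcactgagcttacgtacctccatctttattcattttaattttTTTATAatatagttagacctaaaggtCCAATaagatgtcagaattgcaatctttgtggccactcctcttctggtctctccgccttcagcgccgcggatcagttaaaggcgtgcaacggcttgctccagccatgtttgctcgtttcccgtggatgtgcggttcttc
Kdm6a: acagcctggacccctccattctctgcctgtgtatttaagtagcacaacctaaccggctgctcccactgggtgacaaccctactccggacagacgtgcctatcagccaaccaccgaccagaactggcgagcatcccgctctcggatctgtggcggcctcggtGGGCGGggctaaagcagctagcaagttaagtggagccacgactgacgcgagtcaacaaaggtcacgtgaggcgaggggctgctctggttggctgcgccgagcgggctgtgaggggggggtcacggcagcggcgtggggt
The peak over the Xist start had 0 counts in mouse 1 and 109 in mouse 2, at least 67.4-fold higher by the same floor. Its window is 41.3% GC and holds 1 TATA box and 1 CCAAT box. The Kdm6a promoter had 73.1 CPM in mouse 1 and 211 in mouse 2, a log2 ratio of 1.53, and its window is 63.0% GC with 1 SP/KLF site.

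Promoters of further genes known to escape X silencing were mostly higher in mouse 2 (a list of 10 chosen after values of the X chromosome were seen). Their median log2 ratio was 0.90, and 5 of 10 were over 2-fold higher: 5530601H04Rik (1.85), Pbdc1 (1.71), Kdm6a, Kdm5c (1.27) and Jpx (1.01). Ddx3x (0.80), Eif2s3x (0.69), Ftx (0.67) and Car5b (0.47) were higher by less, and Utp14a was lower (-0.34). Of 10 other X-linked genes, 0 were over 2-fold higher, with a median log2 ratio of 0.08, from -0.08 at Btk to 0.58 at Fmr1. Over all 351 X-linked promoter-TSS peaks of at least 5 CPM the median was 0.28, so these 10 genes were lower than X promoters in general. Atrx had 21.04 and 20.8 CPM, and Hprt 30.5 and 35.6.

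On autosomes the ratio of the mice followed gene density. Peaks with 0 to 2 protein-coding genes within 0.5 Mb had a median log2 ratio of mouse 2 over mouse 1 of 0.40, peaks with 6 to 10 genes 0.01, and peaks with more than 40 genes -0.36. By chromosome the median ran from 0.11 on chromosome 3 to -0.39 on chromosome 11, where 143 of 2889 peaks (4.95%) were over 2-fold lower and 11 (0.381%) higher. After the median of each density class was subtracted, 394 autosomal peaks were over 2-fold higher in mouse 2 and 433 lower, from 609 and 680. X-linked peaks outside Firre, 4933407K13Rik and Xist had a median of 0.27, against -0.07 for all autosomal peaks. In classes of like density the X and autosomal medians were 0.47 and 0.40 at 0 to 2 genes, 0.36 and 0.19 at 3 to 5, 0.32 and 0.01 at 6 to 10, and 0.23 and -0.20 at 11 to 20.

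The largest differences at single autosomal peaks, 1 for each name, were as follows. Lower in mouse 2 were peaks named for Dbi (325 and 21 counts), Gm16486 (976 and 70), Gm27533 (1899 and 165), Gm24979, Ly6g5b, Malat1 (1415 and 192) and Gm12703. Higher in mouse 2 were peaks named for Gm23429 (37 and 204 counts), Fras1 (32 and 151), Snd1 (49 and 211), Gm37979 and Gm37136. On the X, among peaks of at least 5 CPM on average, which leaves out the Xist start, the 5 largest, 1 for each name, were at peaks named for Firre, Gm7153, 4933407K13Rik, Gm27520 and Gm14620. These are not separate loci. The Gm7153 peak belongs to the 4933407K13Rik locus and the Gm27520 peak to the Xist locus. The Gm14620 peak (50549796 to 50550099) lies near Firre.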

How the data were processed

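Fast-ATAC-seq counts of 2 wild-type mice were taken from a deposited table of 130941 peaks, in which the authors, per the file headers, give raw whole-number counts for each library, the peak coordinates, an annotation class and a gene name. The mm10 build and the tools HOMER, DESeq, Bowtie2 2.3.4.3 and bcl2fastq 2.17.1.14 are listed, with no role, in the notes on processing that the submitters gave (per the submitters' processing notes). The peak caller is not named in what was used here. Of the gene names, 21 had turned into dates (179 peaks) and are not named in the text.

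Counts were divided by the library total and scaled to CPM (pandas 2.3.3, numpy 2.4.6, Python 3.11.15). Values are means ± SD over 2 mice. Ratios between the mice used a prior count of 0.5 and a minimum mean of 5 CPM. TMM scaling came from edgeR 4.0.16 in R 4.3.3. No test was run, since there is 1 group. RefSeq promoter windows of GRCm38.p6 were overlaid at the coordinates as deposited. Scripts were tested on simulated data. Totals differed, and 1 count was worth 0.0336 CPM in mouse 1 and 0.0624 in mouse 2. Wilson intervals and the floor of 3 counts reflect counting error alone, since reads are not independent molecules.

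Named peaks and genes were the 20 highest peaks and sums, the 15 names with most peaks, the leading peaks of each class, all LSK surface genes and stem cell factors, the 4 highest and 2 lowest members of other lists, and the largest differences between the mice. Some further members and distal peaks were named after their values were seen. A few members of these lists count in the totals and medians but are not reported here by name. Members and lists were chosen with earlier results of these data known. Alternatives were TMM, other minimums, CPM per kb, other gene assignments and leaving out each mouse.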

Additional observations from a re-analysis of the deposited data

How the results depend on the processing

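Of 99 values of the main results under an alternative, 73 stayed as reported and 26 moved by more than the SD over the mice or, for counts, by over 1.5 times. These numbers do not measure robustness, because some outcomes were fixed in advance. For class shares and class medians, either mouse alone always lies within the SD of the mean of 2. TMM cannot change the share of a class within a library. Class medians per kb are in another unit than the SD they were set against. Without the 0.1% highest peaks, promoter-TSS peaks held 34.2% of counts and introns 25.5%. With peaks over a RefSeq start counted as promoter-TSS, the shares were 44.0% for promoter-TSS, 21.3% for intron, 3.74% for exon, 2.56% for TTS and 12.8% for Intergenic. Per kb, the median levels were 14.8 CPM per kb for promoter-TSS, 7.48 for Distant-promoter, 7.70 for intron, 10.1 for exon, 7.99 for TTS and 7.15 for Intergenic. Per kb, the top 1% of peaks held 9.54% of counts and 60.6% of them were promoter-TSS, and leaving out 1 mouse gave 70.2% to 71.0%. Of the 20 names with the highest sums, 1 stayed among the 20 by highest peak, 1 by promoter-TSS peaks only, and 14 in either mouse alone. The median was above that of all protein-coding genes for 10 of 14 gene lists, and for 5 with RefSeq starts added. Peaks over 2-fold higher and lower in mouse 2 numbered 4596 and 4527 at a minimum of 1 CPM, and 243 and 194 at 10 CPM. They numbered 906 and 452 with TMM, which tips the even split towards higher, 394 and 433 after gene density medians were subtracted, and 708 and 769 with counts thinned to the shallower library. Of the motif directions, that of the CpG-free ETS letters turned with 200-base windows and that of YY1 turned within 55 to 65% GC. Apart from the change of unit in the class medians, the cause of these moves was not tested, except that a lower minimum adds peaks with few counts. No paired analysis was possible because only 1 group of 2 mice was described. Depth limits low peaks: 3 counts are 0.101 CPM in mouse 1 and 0.187 in mouse 2.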
